A study of Homo sapiens with 9 samples.

Results

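The EGR transcription factors EGR1, EGR2 and EGR3 and the corepressors that bind them, NAB1 and NAB2, were followed across 9 RNA-seq libraries of HEK293T cells. The 5 genes were taken by their symbols from a table of 17083 genes, and they were selected on the measured RNA levels of EGR1, which stood above the Vector controls with both PLK2 constructs, and of NAB2, which was low in the libraries with PLK2. HEK293T cells derive from human embryonic kidney and express the SV40 large T antigen. The labels give their genotype as wild type and their cell type as epithelial. The Vector group held 3 libraries of cells overexpressing a FLAG vector. The PLK2 group held 3 libraries of cells overexpressing FLAG-tagged PLK2, a polo-like kinase, and the PLK2(D223N) group held 3 libraries of cells overexpressing the FLAG-tagged D223N form, which carries a substitution in the kinase domain. The stated question was which genes PLK2 regulates. No label gives the promoter driving the constructs, the time after their introduction or whether cell clones were picked.

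EGR proteins are zinc finger factors whose genes are switched on within minutes by growth factors, stress and neuronal activity, largely through the kinase ERK acting on serum response factor and its ELK partners. Serum response factor binds an A- and T-rich element called the CArG box, which occurs several times before the EGR1 gene. EGR proteins bind GC-rich sites and activate genes that include NAB2, and the NAB proteins then dock on an inhibitory region of EGR1, EGR2 and EGR3 and repress their targets, partly through the NuRD deacetylase complex. NAB1 and NAB2 therefore act as a negative feedback on the EGR factors, and EGR1 and NAB2 are usually induced one after the other.

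These elements can be read in the sequences before the start sites. The RefSeq table of promoter windows (GRCh38.p14) held windows for 4 of the 5 genes. The 250 bases before each start were searched on both strands for the CArG box and for the EGR sequences GCGTGGGCG and GCGGGGGCG. The stretches below are shown because they carry the matches, which are in capitals. The EGR1 stretch is chr5:138465229-138465478 on the plus strand, and its 2 CArG boxes begin 105 and 83 bases before the start. The EGR2 stretch is chr10:62816418-62816447 on the minus strand, with a CArG box 71 bases before the start of the third of its 3 windows. The NAB2 stretch is chr12:57089042-57089070 on the plus strand, with GCGGGGGCG beginning 62 bases before the start. The NAB1 stretch is chr2:190648846-190648874 on the plus strand and holds 2 overlapping matches of GCGGGGGCG on the opposite strand, 42 and 36 bases before the start of the first of 3 windows.
EGR1: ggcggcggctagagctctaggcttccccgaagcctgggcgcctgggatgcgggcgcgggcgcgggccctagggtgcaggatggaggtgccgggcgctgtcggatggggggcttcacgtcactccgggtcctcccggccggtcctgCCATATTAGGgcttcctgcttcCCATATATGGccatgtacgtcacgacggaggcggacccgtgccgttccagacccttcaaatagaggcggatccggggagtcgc
EGR2: gttcctcagtCCATATATGGgcagcgacgt
NAB2: tgtgcgtcctGCGGGGGCGgaggcgcgga
NAB1: cagcggcCGCCCCCGCCCCCGCccggcgg

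The CArG box matched in the EGR1 window, in 1 of the 3 EGR2 windows and in neither NAB gene. The EGR sequences matched in both NAB genes and in no window of EGR1 or EGR2, while EGR3 had no window. Of 35116 windows of 27305 genes, 1.159% held a CArG box and 0.03132% held 2 or more, as EGR1 did. GCGGGGGCG was present in 4.724% of the windows, GCGTGGGCG in 0.7205% and either in 5.368%. In 0.5097% GCGGGGGCG was present 2 or more times, as in the first NAB1 window. A further NAB1 window held GCGTGGGCG 175 bases before its start. Such a match is a description of these letters, and binding was not measured.

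All 9 libraries were of similar depth, with totals from 14288165 to 16510186 estimated counts, the lowest in Vector replicate 2. The transgene followed the labels, with PLK2 at 3.42 ± 0.64 CPM (read counts per 1e+06 counts of the library, on the TMM scale) in Vector, 12358 ± 1650 with PLK2(D223N) and 23744 ± 2384 with PLK2 (SD, n = 3 each). The 2 constructs were thus not at the same level, and PLK2 RNA was higher in the PLK2 group than in PLK2(D223N) by 0.94 on the log2 scale (SE 0.09, edgeR quasi-likelihood test, Benjamini-Hochberg adjusted p = 4.99e-05). Of the 5 epithelial markers listed, 4 were in the table. KRT18 ran from 41.2 to 48.1 CPM and KRT8 from 18.0 to 21.8 CPM over the 9 libraries, and EPCAM from 1.35 to 2.28 CPM. Of 8 myeloid markers 5 were in the table and summed to 2.20 to 2.83 CPM in Vector, 0.676 to 1.79 CPM in PLK2(D223N) and 2.22 to 2.50 CPM in PLK2, with ITGAM at up to 2.14 CPM and TMEM119 and CSF1R at or near 0. Of 5 fibroblast markers 4 were in the table and summed to 10.6 to 13.1 CPM, nearly all of it COL1A1 (8.93 to 11.03 CPM) and PDGFRA (1.25 to 2.35 CPM), with COL1A2 and LUM at or near 0. The 4 neuronal markers summed to 6.95 to 10.4 CPM in Vector, 10.1 to 11.6 CPM in PLK2(D223N) and 11.1 to 11.97 CPM in PLK2, nearly all of it SYT1, while SNAP25 and STMN2 were at or near 0. The part of these markers in the differences below was not tested.

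EGR1 is the family member best known as an immediate early factor, and it carried most of the EGR RNA in these cells. It lies on chromosome 5 at 138465490-138469315 on the plus strand (GRCh38, GENCODE release 29), with 2 exons. Its estimated counts were 45, 39 and 44 in the Vector libraries, 107, 86 and 103 with PLK2(D223N) and 89, 81 and 94 with PLK2. Every library with a construct held at least 81 counts and no Vector library more than 45, so neither construct group overlapped Vector. Of all tested genes, 20.1% were without overlap in PLK2 vs Vector and 13.9% in PLK2(D223N) vs Vector. On the CPM scale the Vector libraries were at 2.67, 2.71 and 2.70, the PLK2(D223N) libraries at 6.64, 5.31 and 6.33 and the PLK2 libraries at 5.64, 5.19 and 5.89.

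The group means of EGR1 were 2.69 ± 0.018 CPM in Vector, 6.09 ± 0.70 with PLK2(D223N) and 5.57 ± 0.35 with PLK2 (SD, n = 3 each). The EGR1 level was 2.26-fold that of Vector with PLK2(D223N), a log2 difference of 1.18 (SE 0.14), and 2.07-fold with PLK2, a log2 difference of 1.05 (SE 0.14). These contrasts chose the gene and share the Vector libraries, so they are given without a test. The spread of the Vector libraries was far below the 0.413 CPM that counting error alone gives at this depth, so their closeness is no measure of how much cultures vary. In bulk RNA a larger share of cells with EGR1 and more EGR1 RNA per cell cannot be told apart.

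**Figure D1:**
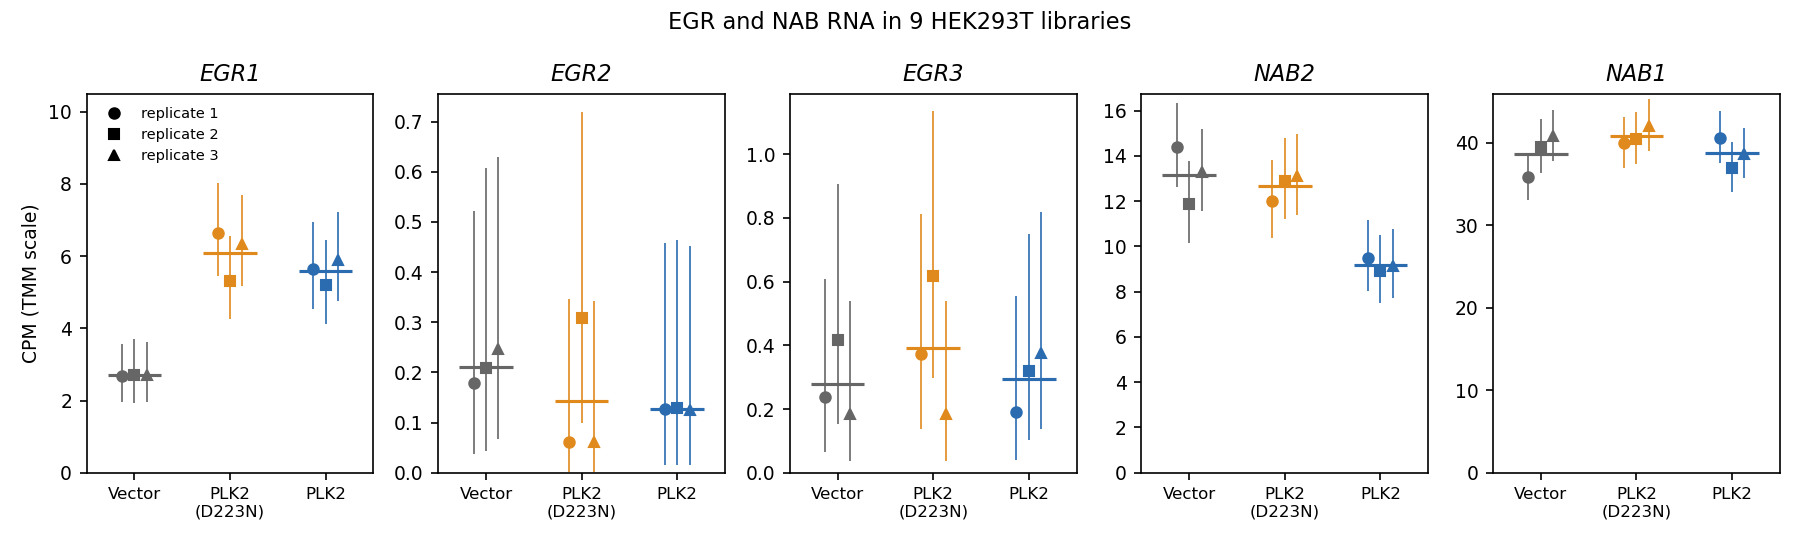
Level of the 5 genes in each library (CPM, TMM scale, axes from 0 and different for each gene). Symbols are libraries, vertical lines are exact 95% Poisson intervals that cover counting error only, and horizontal bars are group means. EGR1 lies near 2.7 in the Vector libraries and between 5.19 and 6.64 with either construct, and NAB2 lies between 8.91 and 9.50 with PLK2 and between 11.9 and 14.4 elsewhere.

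The difference in EGR1 between the constructs was close to its SE and was not called. The log2 difference of PLK2 from PLK2(D223N) was -0.13 (SE 0.12, 95% interval -0.38 to 0.13, edgeR quasi-likelihood test, Benjamini-Hochberg adjusted p = 0.943), and the libraries overlapped. NAB1 was not called either, where 0.162% of 12924 tested genes were, and NAB2 is given no test here because it was chosen for its level in the PLK2 libraries. Neither EGR1 nor NAB1 passed at an unadjusted p below 0.05, and DESeq2 and limma called neither. The interval for EGR1 covers values from 0.766-fold to 1.09-fold, so differences of that size are within the interval. These libraries were also those that were set against Vector when the gene was chosen. A choice for a high level with both constructs favours a small difference between them. The test is therefore not independent of the choice. PLK2 RNA itself was in the PLK2 libraries at 1.92-fold its level in the PLK2(D223N) libraries.

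EGR2, a factor known for its part in Schwann cell myelination and hindbrain patterning, was barely present. It lies on chromosome 10 at 62811996-62919900 on the minus strand. Its estimated counts were 3, 3 and 4 in Vector, 1, 5 and 1 in PLK2(D223N) and 2, 2 and 2 in PLK2. The 7 counts of the PLK2(D223N) group came mostly from replicate 2. The ratio of PLK2 to Vector was 0.602 (exact 95% counting interval 0.180 to 1.83), and that of PLK2(D223N) to Vector was 0.685 (0.221 to 1.99). Without PLK2(D223N) replicate 2 the latter was 0.294.

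EGR3, which is induced along with EGR1 in neurons and lymphocytes, was equally low. The Vector libraries held 4, 6 and 3 estimated counts, the PLK2(D223N) libraries 6, 10 and 3 and the PLK2 libraries 3, 5 and 6. All 3 groups overlapped. The gene AC055854.1 overlaps EGR3 on the other strand over 3153 bases, and the strand setting of the counting is not given. Reads of both genes in that stretch can therefore not be told apart. The ratio of PLK2 to Vector was 1.08 (0.471 to 2.50) and that of PLK2(D223N) to Vector was 1.43 (0.670 to 3.15) by the same counting interval, so the counts leave a wide range of ratios for EGR3. Between the constructs, the ratio of PLK2 to PLK2(D223N) was 0.879 (0.244 to 3.06) for EGR2, or 2.05 without PLK2(D223N) replicate 2, and 0.756 (0.351 to 1.59) for EGR3. The intervals cover counting error only. EGR2 and EGR3 did not pass the filter on low counts, which left 3 of the 5 genes in the fit. The fourth gene of the family, EGR4, had 1 count in all, in PLK2 replicate 2.

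NAB2, the corepressor that EGR1 itself is known to induce, did not follow EGR1. It lies on chromosome 12 at 57088894-57095476 on the plus strand, with 7 exons. Its estimated counts were 242, 171 and 216 in Vector, 193, 209 and 213 in PLK2(D223N) and 150, 139 and 146 in PLK2. In CPM, the Vector libraries were at 14.4, 11.9 and 13.3, the PLK2(D223N) libraries at 11.98, 12.9 and 13.1 and the PLK2 libraries at 9.50, 8.91 and 9.15. The 3 PLK2 libraries lay below all 6 others, and the PLK2(D223N) libraries lay inside the range of the Vector libraries. Of all tested genes, 20.1% were without overlap in PLK2 vs Vector and 20.5% in PLK2 vs PLK2(D223N). The share of genes with the PLK2 libraries below all 6 others was not counted.

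Group means of NAB2 were 13.2 ± 1.3 CPM in Vector, 12.7 ± 0.59 with PLK2(D223N) and 9.19 ± 0.30 with PLK2 (SD, n = 3 each). The NAB2 level with PLK2 was 0.696-fold that of Vector, a log2 difference of -0.52 (SE 0.09), and 0.726-fold that of PLK2(D223N), a difference of -0.46 (SE 0.09). With PLK2(D223N) the log2 difference from Vector was -0.06 (SE 0.09). NAB2 was thus low with PLK2 and not with both constructs, while EGR1 was high with both. PLK2 RNA was in the PLK2 libraries at 1.92-fold its level in the PLK2(D223N) libraries. For NAB2, the form and the level of the construct can therefore not be told apart. NAB2 was chosen for its low level in the PLK2 libraries, which enter 2 of these contrasts, and none of the 3 is given a test. Over the alternative settings, the difference of PLK2 from Vector ranged from -0.59 to -0.46 and that of PLK2(D223N) from -0.13 to 0.0064.

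The last 69 bases of NAB2 (chromosome 12, 57095408-57095476) overlap the end of STAT6, a transcription factor gene on the opposite strand, and no source used here gives the strand setting of the counting. Reads of the 2 genes in that stretch can therefore not be told apart. STAT6 was at 37.6 ± 1.2 CPM in Vector, 40.1 ± 0.54 with PLK2(D223N) and 38.7 ± 3.3 with PLK2 (SD, n = 3 each). It did not show the low level of NAB2 with PLK2, with a log2 difference from Vector of 0.04 (SE 0.07, edgeR quasi-likelihood test, Benjamini-Hochberg adjusted p = 0.777). STAT6 was called in none of the 3 comparisons under the settings used here or any of the 19 alternatives. Its PLK2(D223N) libraries (39.5 to 40.5 CPM) lay above the Vector libraries (36.6 to 39.0 CPM). In that comparison 13.9% of all tested genes were without overlap.

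NAB1, the second corepressor, is known to be expressed more constantly than NAB2. It lies on chromosome 2 at 190646746-190692766 on the plus strand, with 10 exons, and is overlapped on the other strand by the non-coding genes AC006460.1 and AC006460.2. Its estimated counts were 603, 569 and 664 in Vector, 644, 656 and 685 in PLK2(D223N) and 641, 577 and 617 in PLK2. No 2 groups were separated. The NAB1 means were 38.7 ± 2.6 CPM in Vector, 40.9 ± 1.1 with PLK2(D223N) and 38.8 ± 1.8 with PLK2 (SD, n = 3 each).

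Against Vector, NAB1 differed by 0.00 (SE 0.07) on the log2 scale with PLK2 and by 0.08 (SE 0.06) with PLK2(D223N). Between the constructs the difference was -0.08 (SE 0.06, 95% interval -0.21 to 0.06, edgeR quasi-likelihood test, Benjamini-Hochberg adjusted p = 0.936). The interval for NAB1 in this fit covers values from 0.862-fold to 1.04-fold. Of the 3 genes in the fit, the groups did not overlap for EGR1 and NAB2 in PLK2 vs Vector, for EGR1 in PLK2(D223N) vs Vector and for NAB2 in PLK2 vs PLK2(D223N). The share of all tested genes without overlap was 20.1%, 13.9% and 20.5% in these comparisons, and nothing is read from the counts, since the values chose the genes.

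**Figure D2:**
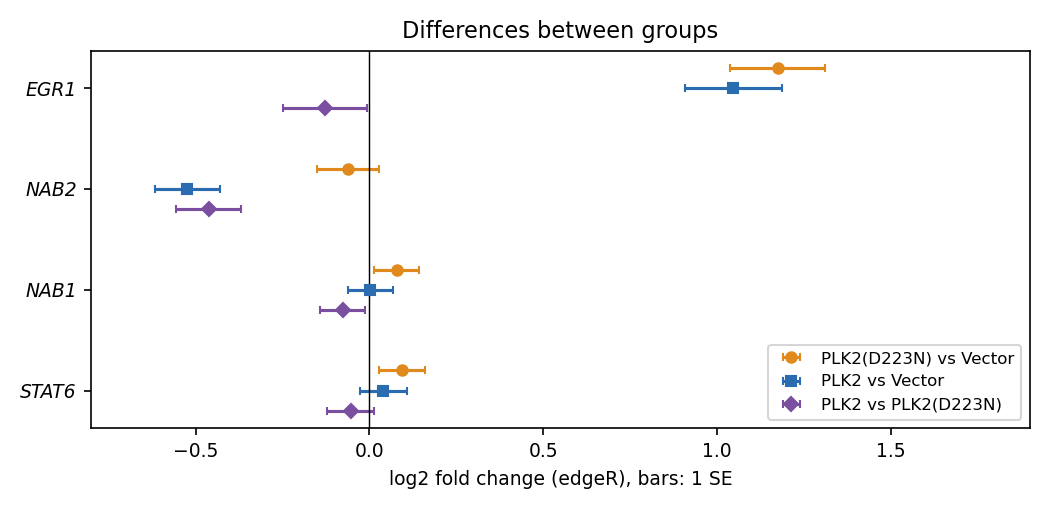
Log2 differences between groups for EGR1, NAB2, NAB1 and the overlapping gene STAT6, from the edgeR fit to 9 libraries. Bars are 1 SE. EGR1 lies near 1 against Vector with both constructs, NAB2 lies near -0.5 in both contrasts that hold the PLK2 libraries, and NAB1 and STAT6 lie within 0.1 of 0.

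Levels of different genes were compared per length, as TPM, the deposited length-corrected values. In the Vector libraries NAB1 was highest at 17.9 ± 1.7 TPM, followed by NAB2 at 11.1 ± 0.69 and EGR1 at 1.68 ± 0.072, while EGR2 and EGR3 were at 0.143 ± 0.029 and 0.137 ± 0.064 (SD, n = 3 each). The order of the first 3 was the same in each of the 9 libraries and their ranges did not meet, whereas EGR2 and EGR3 did not differ beyond their spread in any group. With PLK2(D223N) the levels were 19.6 ± 0.58 TPM for NAB1, 11.1 ± 0.39 for NAB2 and 3.95 ± 0.45 for EGR1. With PLK2 they were 17.9 ± 1.0 TPM for NAB1, 7.81 ± 0.34 for NAB2 and 3.49 ± 0.29 for EGR1. EGR1 thus made up 85.9% ± 3.0 of the summed EGR TPM in Vector, 93.0% ± 5.5 with PLK2(D223N) and 93.9% ± 1.1 with PLK2 (SD, n = 3 each).

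The balance of activator and corepressor RNA was described as the ratio of EGR1 to NAB2 within each library. The ratio of TPM values was 0.137, 0.168 and 0.150 in the Vector libraries, 0.407, 0.303 and 0.361 in PLK2(D223N) and 0.438, 0.430 and 0.469 in PLK2. The 3 groups did not overlap, with Vector lowest and PLK2 highest. Means were 0.151 ± 0.016, 0.357 ± 0.052 and 0.446 ± 0.021 (SD, n = 3 each). Both genes of the ratio were chosen for these contrasts, so it is a description.

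Against NAB1 the constructs were alike in value. The ratio of EGR1 to NAB1 was 0.0942 ± 0.0056 in Vector, 0.201 ± 0.023 with PLK2(D223N) and 0.195 ± 0.0094 with PLK2 (SD, n = 3 each), and the ranges of the constructs overlapped. The share of NAB2 in the summed NAB TPM was 42.4%, 35.6% and 37.4% in Vector, 35.6%, 37.1% and 35.7% in PLK2(D223N) and 30.1%, 30.7% and 30.5% in PLK2. The 3 PLK2 libraries were the lowest of the 9 and lay close together. Summed NAB RNA was 29.04 ± 1.34 TPM in Vector, 30.7 ± 0.82 with PLK2(D223N) and 25.7 ± 1.4 with PLK2 (SD, n = 3 each). The highest PLK2 library (26.6 TPM) lay below the lowest of the others (27.65 TPM). The share and the sum both hold NAB2, which was chosen for its low level with PLK2, so they are descriptions. NAB1 alone was at a mean of 17.9 TPM in both Vector and PLK2.

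**Figure D3:**
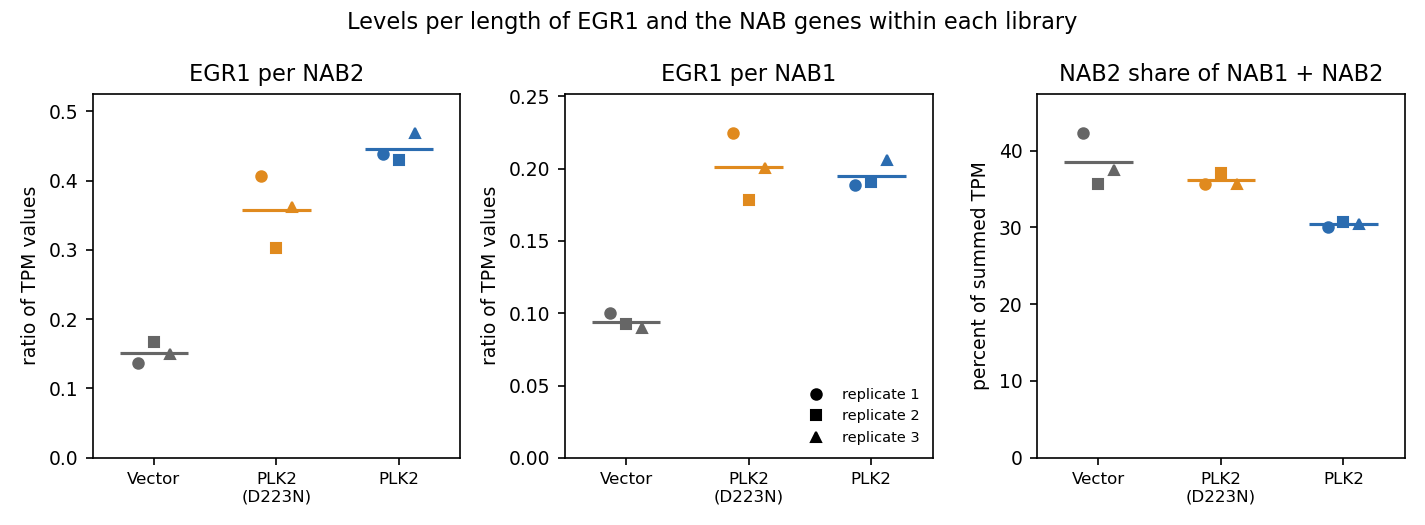
Ratio of EGR1 to NAB2, ratio of EGR1 to NAB1 and share of NAB2 in the summed NAB RNA, from TPM values of each library (axes from 0). Symbols are libraries and bars are group means. The EGR1 to NAB2 ratio separates all 3 groups, and the NAB2 share is near 30% with PLK2 and between 35.6% and 42.4% elsewhere.

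Genes that act around the EGR and NAB genes were then counted, using lists of relatives, upstream regulators, fellow immediate early genes, reported targets and NuRD subunits. Differences in this and the following counts are log2 values from the same edgeR fit, and p-values are Benjamini-Hochberg adjusted over all 12924 tested genes. The background of called genes in PLK2 vs Vector was 0.511% of all tested genes, 0.480% higher and 0.0310% lower. It was 0.0232% higher and 0% lower in PLK2(D223N) vs Vector, and 0.155% higher and 0.00774% lower in PLK2 vs PLK2(D223N). At an unadjusted p below 0.05 there were 16.4% of all tested genes in PLK2 vs Vector, 8.53% in PLK2(D223N) vs Vector and 6.04% in PLK2 vs PLK2(D223N). The median over all tested genes was -0.00, 0.01 and -0.00 in these comparisons.

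The zinc finger factors that bind GC-rich sites like those of EGR1 were not called in any comparison. Of 5 relatives, 4 were tested, and their medians were 0.02 in PLK2 vs Vector, 0.02 in PLK2(D223N) vs Vector and 0.03 in PLK2 vs PLK2(D223N). SP4 was at 0.18 (SE 0.08, adjusted p = 0.296) in PLK2 vs Vector and was the 1 of 4 at an unadjusted p below 0.05 there, where 16.4% of all tested genes were. WT1, a factor of kidney development with zinc fingers much like those of EGR1, was at -0.16 (SE 0.09) with PLK2 and -0.02 (SE 0.09) with PLK2(D223N) against Vector. SP1 and SP3 were at -0.07 and 0.12 in PLK2 vs Vector. None of the 4 was at an unadjusted p below 0.05 in the other comparisons, and DESeq2 and limma called none.

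None of the 24 genes of the route from RAS and ERK to serum response factor was called, and their medians were -0.01, 0.01 and -0.02 in the 3 comparisons. Of the members furthest from 0 for their SE in PLK2 vs Vector, most lay below 0, including ELK1, which joins serum response factor at the CArG box (-0.21, SE 0.06, adjusted p = 0.123), and SRF itself (-0.18, SE 0.07, adjusted p = 0.237). The ERK-activated kinase RPS6KA1 was at -0.21 (SE 0.07), the p38-activated kinase MAPKAPK2 at -0.20 (SE 0.07) and GRB2 at -0.15 (SE 0.06). The RAF kinase gene BRAF was at 0.18 (SE 0.07) and CREB1 at 0.17 (SE 0.07). At an unadjusted p below 0.05 there were 7 of the 24 in PLK2 vs Vector, 2 in PLK2(D223N) vs Vector and 0 in PLK2 vs PLK2(D223N), where 16.4%, 8.53% and 6.04% of all tested genes were. Without Vector replicate 2, which held the lowest total, 7 of the 24 were called in PLK2 vs Vector, in a fit that called 12.7% of all tested genes. DESeq2 and limma called none of the 24. RNA levels of these genes say nothing about the activity of the kinases.

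As a group, the other immediate early genes were centred near 0. Of 48 such genes 45 were tested, with medians of 0.00 in PLK2 vs Vector, 0.04 in PLK2(D223N) vs Vector and -0.01 in PLK2 vs PLK2(D223N), and 1 was called higher and 0 lower in each comparison. At an unadjusted p below 0.05 were 11, 6 and 8 of the 45. The shares of all tested genes there were 16.4%, 8.53% and 6.04%. The called gene was not the same throughout. PPP1R15A, which directs dephosphorylation of the translation factor eIF2α, was at 57.9 ± 6.5 CPM in Vector, 61.1 ± 3.1 with PLK2(D223N) and 83.1 ± 7.0 with PLK2 (SD, n = 3 each). It rose in PLK2 against Vector by 0.52 (SE 0.08, adjusted p = 0.00762) and against PLK2(D223N) by 0.44 (SE 0.08, adjusted p = 0.0382).

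The call of PPP1R15A against Vector was lost without PLK2 replicate 2 (adjusted p = 0.0943, the highest of 19 alternatives). The call against PLK2(D223N) held in 10 of 19 alternatives, with an adjusted p of up to 0.320, and was lost in both limma fits and without Vector replicate 3 or any 1 library of either construct. ATF3, a stress-induced bZIP factor, was at 61.7 ± 6.4 CPM in Vector, 86.2 ± 5.1 with PLK2(D223N) and 73.3 ± 1.8 with PLK2 (SD, n = 3 each). It rose in PLK2(D223N) against Vector by 0.48 (SE 0.07, adjusted p = 0.0261), a call that held in 11 of 19 alternatives. That call was lost in the fit to the 6 libraries compared (adjusted p = 0.439, the highest) and without Vector replicate 3 or any 1 library of either construct. Its differences were 0.25 (SE 0.07, adjusted p = 0.135) in PLK2 vs Vector and -0.23 (SE 0.07, adjusted p = 0.446) in PLK2 vs PLK2(D223N).

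FOS, which serum response factor also drives, and further AP-1 genes were picked out after their values were seen. FOS was at -0.36 (SE 0.19, adjusted p = 0.347) with PLK2 and 0.10 (SE 0.18, adjusted p = 0.857) with PLK2(D223N) against Vector, and JUN was at 0.01 (SE 0.06) and 0.10 (SE 0.06). FOSL1 was at 0.76 (SE 0.28, adjusted p = 0.211) with PLK2 and 0.27 (SE 0.30) with PLK2(D223N). FOSB was at -0.33 (SE 0.16, adjusted p = 0.318) with PLK2 and -0.15 (SE 0.15) with PLK2(D223N), and JUNB at 0.03 (SE 0.12) and -0.11 (SE 0.12). None of these genes was called, and the SEs of FOS and FOSL1 were wider than that of EGR1. Of the further members with small p, CSRNP1 was at 0.37 (SE 0.10, adjusted p = 0.104) in PLK2 vs Vector and JUND at 0.44 (SE 0.12, adjusted p = 0.530) in PLK2(D223N) vs Vector. ID1, an inhibitor of bHLH factors, was at -0.29 (SE 0.09) with PLK2, and SPRED2, an inhibitor of RAS to ERK signalling, at 0.22 (SE 0.07).

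Genes reported in other cells as bound or regulated by EGR factors were mostly near 0. Of 34 listed, 33 were in the table and 26 were tested, with medians of 0.01 in PLK2 vs Vector, 0.05 in PLK2(D223N) vs Vector and -0.03 in PLK2 vs PLK2(D223N). The growth arrest gene GADD45A rose in PLK2 against Vector, from 21.5 ± 1.2 to 28.3 ± 0.67 CPM (SD, n = 3 each), by 0.39 (SE 0.07, adjusted p = 0.0117). It was the 1 call of the list there, and ATF3, which this list also holds, was the 1 call in PLK2(D223N) vs Vector. At an unadjusted p below 0.05 were 5 and 3 of the 26 in these comparisons, where 16.4% and 8.53% of all tested genes were. No member was called in PLK2 vs PLK2(D223N) by the edgeR fit to 9 libraries or DESeq2, with 3 of 26 at an unadjusted p below 0.05, where 6.04% of all tested genes were. Other edgeR settings called 4 there with 6 libraries, 3 with GC and length trends removed and 1 without a filter. These fits called 3.92%, 0.716% and 0.205% of all tested genes. Without 1 library, 0 to 4 were called, with 4 without Vector replicate 1, where 2.43% of all tested genes were called. The GADD45A call held in 14 of 19 alternatives and was lost in the fit to 6 libraries, without Vector replicate 3 and without any 1 PLK2 library (adjusted p of up to 0.101).

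GADD45A was at 0.05 (SE 0.07, adjusted p = 0.783) in PLK2(D223N) vs Vector and at 0.34 (SE 0.07, adjusted p = 0.0631) in PLK2 vs PLK2(D223N). The cell cycle inhibitor CDKN1A was at 0.37 (SE 0.12, adjusted p = 0.180) with PLK2 and 0.26 (SE 0.12, adjusted p = 0.574) with PLK2(D223N). EP300, a histone acetyltransferase, was at 0.14 (SE 0.05) and 0.02 (SE 0.05), and the angiogenic factor VEGFA at 0.11 (SE 0.09) and 0.21 (SE 0.09). The myelin gene PMP22 was at -0.14 (SE 0.07) and -0.07 (SE 0.07). None of these 4 was called in any comparison.

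Subunits of the NuRD complex, through which NAB2 represses, showed no called gene among 13 in any comparison, with medians of -0.03, -0.03 and 0.02. MTA2 was at -0.14 (SE 0.06, adjusted p = 0.265) in PLK2 vs Vector, the 1 member of the 13 at an unadjusted p below 0.05, where 16.4% of all tested genes were. The deacetylase gene HDAC2 was at 0.09 (SE 0.06), and the methyl-CpG-binding domain genes MBD3 and MBD2 were at -0.10 (SE 0.07) and -0.04 (SE 0.06). The 13 subunits ran from -0.14 to 0.09 in PLK2 vs Vector, where NAB2 was at -0.52. DESeq2 and limma called none of them, and none was at an unadjusted p below 0.05 in the other comparisons.

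**Figure D4:**
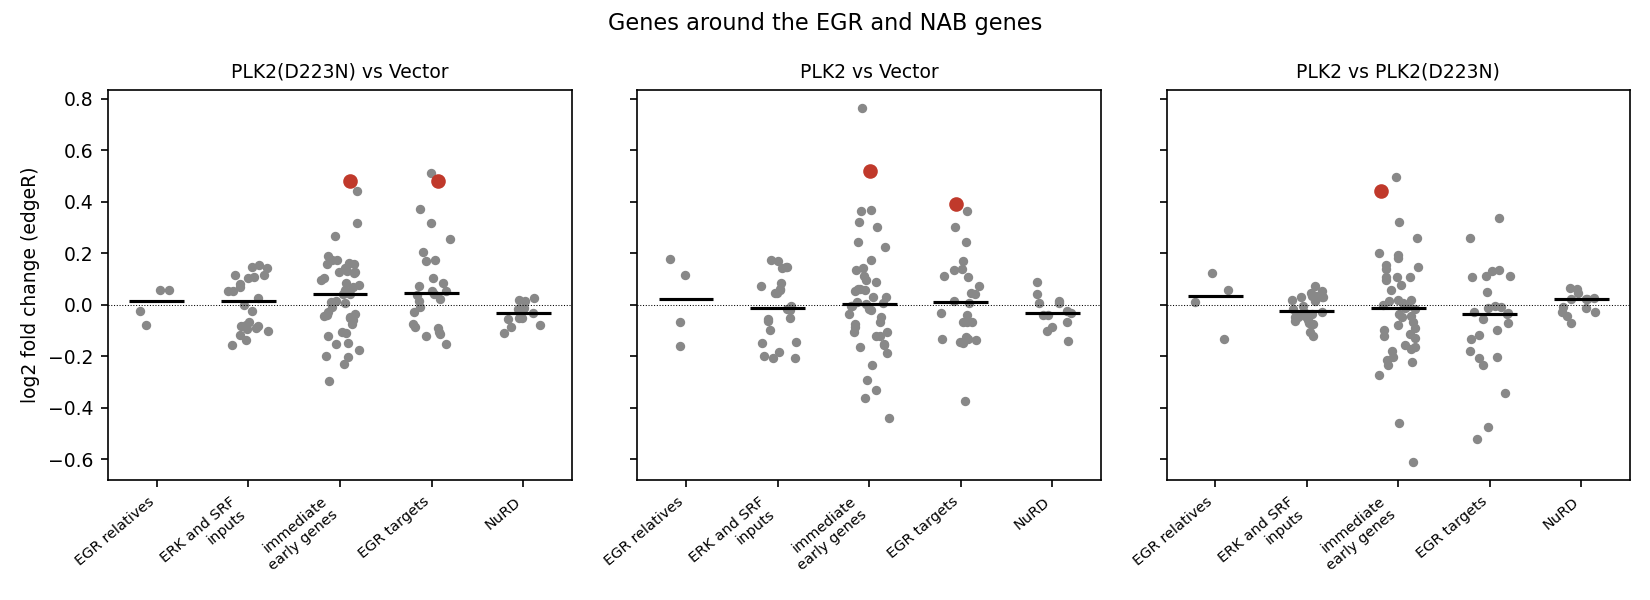
Log2 differences of the tested genes of 5 lists in the 3 comparisons (edgeR). Points are genes, spread sideways for clarity, larger red points are called genes and black bars are list medians. The medians lie between -0.03 and 0.05, and the called genes are ATF3 in PLK2(D223N) vs Vector, PPP1R15A and GADD45A in PLK2 vs Vector and PPP1R15A in PLK2 vs PLK2(D223N).

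To find the genes whose levels ran most like those of EGR1 and NAB2, log2 CPM was centred on each gene's mean over the 9 libraries and the root mean square difference was taken for 12295 genes. EGR1 itself varied by 0.516 on this measure. Its nearest genes were NPEPL1, an aminopeptidase-like gene, at a distance of 0.245, the olfactory receptor gene OR6C74 at 0.247, HHIPL2 at 0.272, the butyrophilin gene BTN3A3 at 0.279 and NDST4, a heparan sulfate sulfotransferase, at 0.283. Each distance was close to 0.5 of the variation of EGR1 itself. NPEPL1 was at 1.75 ± 0.21 CPM in Vector, 2.84 ± 0.18 with PLK2(D223N) and 3.04 ± 0.22 with PLK2, and BTN3A3 at 1.43 ± 0.044, 2.55 ± 0.52 and 2.83 ± 0.39 (SD, n = 3 each). All 5 were scarce, with group means of at most 4.96 CPM (HHIPL2 with PLK2(D223N)).

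NAB2 varied by 0.241 over the libraries. Its nearest genes were the RNA polymerase III factor BRF2 at 0.0984, the homeobox gene HOXA9 at 0.0996, LRRC20 at 0.102, and the zinc finger genes ZBTB46 at 0.104 and ZNF48 at 0.104. BRF2 was at 22.3 ± 2.4 CPM in Vector, 22.2 ± 0.50 with PLK2(D223N) and 17.9 ± 0.53 with PLK2, and HOXA9 at 107.2 ± 7.5, 103.3 ± 5.6 and 82.4 ± 1.7 (SD, n = 3 each). LRRC20 was at 18.9 ± 1.1, 17.5 ± 0.11 and 14.4 ± 0.59 CPM. Like NAB2, these 3 genes were lowest in the 3 PLK2 libraries. The likeness is a description over 9 libraries that share their depth and group structure.

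**Figure D5:**
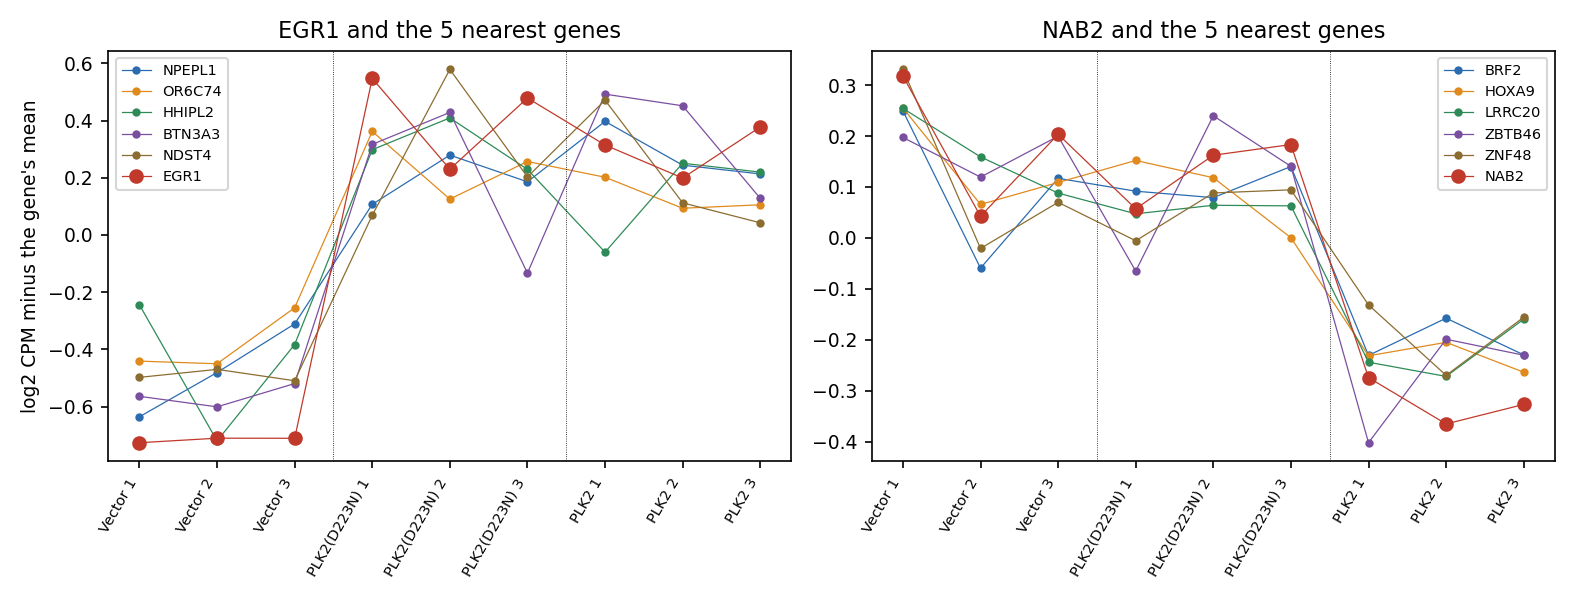
Log2 CPM minus the gene's mean over 9 libraries for EGR1, NAB2 and the 5 nearest genes of each. Libraries are on the horizontal axis, dotted lines divide the groups, and joining lines only guide the eye. EGR1 and its nearest genes are low in the Vector libraries, and NAB2 and its nearest genes are low in the PLK2 libraries.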

How the data were processed

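RNA of 9 HEK293T libraries in 3 groups of 3 was compared, and the labels describe those within a group as biological replicates. Oligo(dT) beads enriched mRNA, per the labels' protocols. The submitters' processing notes name Bowtie2, RSEM 1.3.1, DESeq2 1.4.5 and the build GRCh38.p13. The annotation, the role of each tool and whether counting used strand are not stated in any source used here. The authors deposited estimated counts, of which 87.1% to 88.5% per library lay within 0.005 of a whole number, and TPM values, which the authors corrected for length and depth. FPKM and scaled counts, 18 columns in all, were not used. The column of Vector replicate 1 was matched to a sample whose title has transposed letters.

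Here the estimated counts were rounded, filterByExpr kept 12924 of 17083 genes, and edgeR 4.0.16 (R 4.3.3) fitted a quasi-likelihood model to all 9 libraries, with TMM scaling and group as its term. Calls needed a two-sided Benjamini-Hochberg adjusted p below 0.05 over all tested genes. The code was tested on simulated data. Alternatives were the Wald test or size factors of DESeq2 1.42.0, all genes with a count, a filter asking for 10 counts throughout a group and 1 CPM on average, a replicate term, only the 6 libraries compared, PLK2 taken out before scaling, limma 3.58.1 on log2(TPM + 1) and log2(TPM + 0.1) for mean TPM of at least 1, and each library left out. After seeing the data, a loess correction (span 0.3) for GC content and length of the longest GENCODE 29 transcript was added. The genes and the lists were chosen with earlier results of these data known. Named genes are the 5 genes, PLK2, called members and up to 4 further members with the smallest p of each list, the 5 genes nearest to EGR1 and to NAB2, and genes overlapping them. BRAF, GRB2, CREB1, FOS, JUN, FOSL1, FOSB and JUNB were added.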

Additional observations from a re-analysis of the deposited data

How the results depend on the processing

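Over 19 alternatives each, EGR1, NAB1 and NAB2 differences in PLK2 vs PLK2(D223N) moved by less than the spread between libraries or kept their side of the threshold, with EGR1 between -0.22 and -0.06 and NAB1 between -0.13 and -0.04. Adjusted p ran from 0.627 to 1.00 for EGR1 and from 0.485 to 1.00 for NAB1. With limma on log2(TPM + 1), which understates the change of low genes, EGR1 was at 0.74 in PLK2 vs Vector and 0.88 in PLK2(D223N) vs Vector. Corrected for GC content and length, NAB1 was at -0.10 and 0.0041 in these comparisons. NAB2, whose longest transcript has the highest GC content of the 5 genes (62.6%), was at -0.48 in PLK2 vs Vector in that fit. Without 1 library, the EGR2 ratio of PLK2 to PLK2(D223N) ran from 0.682 to 2.05, the highest without PLK2(D223N) replicate 2.

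Counts of called genes were less stable. In PLK2 vs Vector the 66 calls became 143 with DESeq2, 136 without a filter, 23 with 6 libraries, 19 with limma at either pseudocount, 379 with GC and length trends removed (252 higher and 127 lower, against 62 and 4) and 13 to 1656 without 1 library. The highest count was without Vector replicate 2 (1205 higher, 451 lower), the next without Vector replicate 1 (363), and the lowest were without a PLK2 library (22, 13 and 20). In PLK2(D223N) vs Vector the 3 calls became 9, 5 and 8 with DESeq2, no filter and GC trends removed, and 2 to 347 without 1 library (347 without Vector replicate 2, 21 without replicate 1). In PLK2 vs PLK2(D223N) the 21 calls became 37 with DESeq2, 35 without a filter, 502 with 6 libraries (374 higher, 128 lower), 11 with limma at either pseudocount, 92 with GC trends removed and 9 to 317 without 1 library (317 without Vector replicate 1, 54 without replicate 2). Limma's split there was 8 higher and 3 lower.

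Without 1 library, calls in PLK2 vs Vector ran from 0 to 1 for EGR relatives, 0 to 7 for ERK and SRF inputs, 0 to 5 for immediate early genes, 0 to 3 for EGR targets and 0 to 1 for NuRD. In PLK2(D223N) vs Vector they ran from 0 to 2 for immediate early genes and 0 to 1 for EGR targets, and in PLK2 vs PLK2(D223N) from 0 to 4 for both. With GC trends removed, 1 ERK and SRF input, 5 immediate early genes and 4 EGR targets were called in PLK2 vs Vector, and 2 immediate early genes and 3 EGR targets in PLK2 vs PLK2(D223N). That fit called 2.95% and 0.716% of all tested genes in these 2 comparisons. With 6 libraries, 0 EGR targets were called in PLK2 vs Vector, 0 of both lists in PLK2(D223N) vs Vector, and 5 immediate early genes and 4 EGR targets in PLK2 vs PLK2(D223N). The fits to 6 libraries called 0.180%, 0.0157% and 3.92% of all tested genes in these comparisons. In PLK2 vs PLK2(D223N) limma called 0 immediate early genes, and 1 EGR target was called without a filter. Of all tested genes, 0.0917% and 0.205% were called there. The cause of these shifts was not tested.

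No pairing by replicate number was visible. Correlations of same-numbered libraries ran from -0.11 to 0.13 and those of differently numbered libraries from -0.21 to 0.11. With 3 libraries per group, such correlations cannot show that no pairing exists. A replicate block gave 76, 4 and 20 calls in the 3 comparisons and left the list counts as they were. Depth limits EGR2 and EGR3, with at most 10 counts in a library.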
